A study of Rattus norvegicus with 4 samples.

Results

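H19 and a set of imprinted genes that regulate growth were followed in liver RNA of obese and lean rats. The genes asked for were H19, Igf2, Igf2r, Dlk1, Peg3, Plagl1, Cdkn1c, Grb10, Mest and Ndn, 10 in all, and 9 of them were measured among 14506 genes. A gene was taken as measured when a probe set of the array carried its symbol alone, and where several did, the one that was brightest on average stood for it. No probe set carried the symbol Peg3 alone, and Peg3 was not analysed here. The set was chosen by gene family with the H19 intensities of both pools already known, and the H19 probe set was selected on its mean log2 intensity, so the differences between pools below describe these pools and support nothing further.

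The animals were untreated 4-month-old males of the WNIN/Ob strain, kept on stock diet, in which an obese and a lean phenotype occur. The strain derives from Wistar rats, and the labels name no gene or allele behind the obesity. Liver RNA of 4 obese animals was combined into 1 pool and that of 4 lean animals into another, and each pool was measured on 2 arrays, called the original and the technical replicate array. The 2 arrays of a pool share the same RNA, so differences between animals cannot be seen, no test across animals exists and every spread given is technical. Levels are log2 intensities of the deposited values, and a difference is the mean of the obese arrays minus the mean of the lean arrays.

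An imprinted gene is expressed mainly from the copy inherited from one parent. Many such genes act on growth before birth: in the mouse, paternally expressed genes such as Igf2, Dlk1, Peg3 and Mest tend to promote growth, and maternally expressed genes such as H19, Igf2r, Cdkn1c and Grb10 tend to restrain it. In rodents the liver expresses H19 and Igf2 strongly before birth and shuts them down in the weeks after it, whereas H19 remains expressed in adult skeletal muscle of the mouse. H19 is a long noncoding RNA that lies next to Igf2, and the microRNA miR-675 is cut from it.

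H19 was the gene of the set with the widest separation between the pools, so the products it can give are shown first. In the RefSeq annotation of rat assembly GRCr8 the miR-675 sequences lie within H19 and those of miR-483 within Igf2, all of them on the minus strand of chromosome 1. Capitals mark the seed, bases 2 to 8, which pairs with target transcripts, and no seed is shared among these 4 mature microRNAs. The microRNAs themselves were not analysed here. The mature sequences, 5′ to 3′, occupy chr1:207161800-207161821 for miR-675-5p, chr1:207161766-207161786 for miR-675-3p, chr1:207247903-207247924 for miR-483-5p and chr1:207247865-207247886 for miR-483-3p.
rno-miR-675-5p: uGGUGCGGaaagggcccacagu
rno-miR-675-3p: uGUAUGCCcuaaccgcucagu
rno-miR-483-5p: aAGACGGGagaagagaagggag
rno-miR-483-3p: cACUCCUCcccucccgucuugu

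The tissue label was checked against hepatocyte markers. All 12 reached the median level of all genes, which is 5.48, and 0 of them passed a 1.5-fold rule between the pools. By that rule 2.43% of all genes were lower in the obese pool and 2.19% higher. Albumin (Alb) stood at 13.72 and 13.77 on the obese arrays and at 13.61 and 13.72 on the lean arrays. The arrays of one pool agreed closely: over all genes, the standard deviation of the difference between its arrays was 0.27 for the obese pool and 0.20 for the lean pool. The lean pool held transcripts of skeletal muscle at high levels. All 21 measured genes of 25 on a skeletal muscle list were lower in the obese pool by a 2-fold rule, beside 1.48% of all genes. The 21 genes had a median difference of -5.81. Their summed intensity was 663 to 674 on the obese arrays and 38286 to 39620 on the lean arrays, on the linear scale. The 4 muscle genes with the highest level in the lean pool were Acta1, the skeletal muscle actin, Myl1, a myosin light chain, Atp2a1, the fast calcium pump, and Ckm, the muscle creatine kinase. Acta1 stood at 6.89 and 6.87 on the obese arrays and at 13.08 and 13.12 on the lean arrays, and the other three were lower in obese liver too, Ckm 59.5-fold, Atp2a1 79.1-fold and Myl1 134-fold. The obese level of Myl1, 4.78, lay below the median of all genes and that of Atp2a1, 5.51, close to it. The folds of these genes have no firm size. This gap runs the same way as the difference in H19 and Grb10 below, and its part in those results was not tested.

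**Figure D1:**
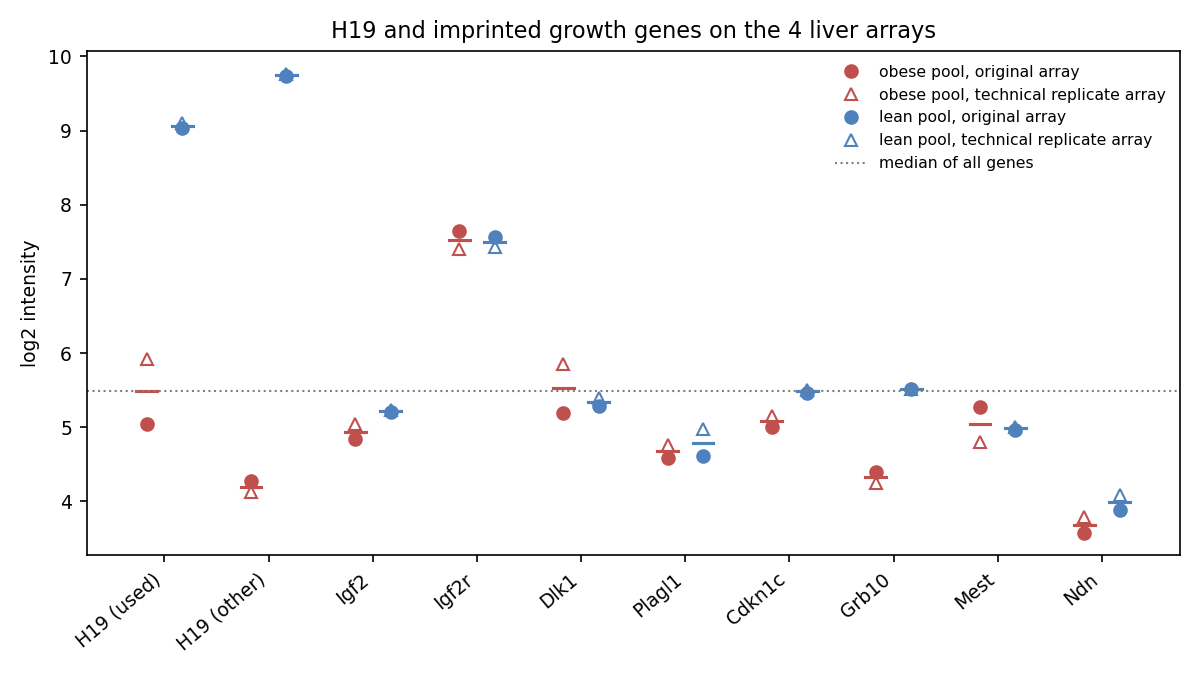
Log2 intensity of the 9 measured genes on the obese arrays (red) and the lean arrays (blue), with H19 shown for both of its probe sets; circles are original arrays, triangles technical replicate arrays, short bars the mean of a pool, and the dotted line the median of all genes, 5.48. H19 lies between 4.12 and 5.92 on the obese arrays and between 9.03 and 9.77 on the lean arrays, Grb10 is separated by a smaller gap, and the remaining genes lie close together.

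By the 1.5-fold rule 2 of the 9 genes were lower in obese liver and 0 higher, and the same 2, H19 and Grb10, passed the 2-fold rule. The 1.5-fold rule asks for a difference of a factor of 1.5, a distance of 0.25 (log2) between the nearest arrays of the pools, and a level of at least 5.48 in the higher pool, and the 2-fold rule for a factor of 2, a distance of 0.5 and the same level. Over all 14506 genes 2.43% were lower and 2.19% higher by the 1.5-fold rule, 1.48% were lower and 0.572% higher by the 2-fold rule, and the split of 352 lower and 317 higher genes by the 1.5-fold rule was 400 and 227 with cyclic loess between the arrays. The median difference of the 9 genes was -0.28, beside 0.03 over all genes. Without H19 and Grb10, a choice made after seeing the data, it was -0.12.

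H19 RNA was abundant in the lean pool and low in the obese pool. Its intensity on the linear scale was 33.1 and 60.7 on the obese arrays and 524 and 548 on the lean arrays, which on the log2 scale is 5.05 and 5.92 against 9.03 and 9.10. Both obese arrays lay far below both lean arrays, and the obese arrays also lay apart from each other by 0.88. A gap at least that wide between the obese arrays occurred in 0.269% of all genes. The difference between the pools was -3.58, so H19 was 12.0-fold lower in obese liver (range 8.63 to 16.6 among the 4 possible pairings of an obese with a lean array). Leaving out the obese original array gave -3.14, and leaving out the obese technical replicate array gave -4.02.

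A second probe set annotated to H19 gave the same direction with a wider distance. It read 4.27 and 4.12 on the obese arrays and 9.74 and 9.77 on the lean arrays, which is 47.1-fold lower in obese liver (range 44.3 to 49.97). The obese arrays were close to each other on this probe set, unlike on the first. The difference was -5.56 on it and -4.57 when the probe sets were averaged, so the size of the fold depends on which of them is read. The obese mean lay at 5.49 on the first probe set, at the median level of all genes, and at 4.20, below it, on the second. No detection calls were used here, so H19 is not known to lie above background in the obese pool and its fold has no firm size. In bulk RNA, fewer cells that express a gene and less RNA of it per cell cannot be told apart, and this holds for every gene below.

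Igf2, the fetal growth factor that shares its imprinted region with H19, differed little. It stood at 4.84 and 5.04 on the obese arrays and at 5.20 and 5.23 on the lean arrays. The arrays of the pools did not overlap, with the obese pool 1.21-fold lower (1.12 to 1.31), and both pools lay below the median level of all genes. Igf2r, the receptor that carries Igf2 to the lysosome for breakdown, read 7.65 and 7.40 on the obese arrays and 7.56 and 7.43 on the lean arrays. Its groups overlapped, and its difference of 0.03 was smaller than the distance between the arrays of either pool.

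Cdkn1c encodes p57, an inhibitor of cyclin-dependent kinases that slows cell division, and it lies in the neighbouring imprinted domain. Its level was 5.01 and 5.16 on the obese arrays and 5.47 and 5.51 on the lean arrays. The arrays did not overlap and the obese pool was 1.32-fold lower (1.24 to 1.41), which is short of the 1.5-fold rule. The obese level of 5.08 lay below the median of all genes, and the lean level of 5.49 lay at it. The fold therefore has no firm size.

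Grb10, an adaptor protein that binds the receptors for insulin and Igf1 and dampens their signals, was the other gene past the rules. It read 4.40 and 4.25 on the obese arrays and 5.52 on both lean arrays. All obese values lay below all lean values, and the obese pool was 2.29-fold lower (range 2.17 to 2.42), a difference of -1.20. The obese level of 4.32 lay below the median of all genes and the lean level just above it, so the fold has no firm size. With 16 added to the linear values, a step that damps differences at low intensity, the difference was -0.78 and short of the 2-fold rule.

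Because Grb10 was the protein-coding gene of the set past the rules, the start of the gene is shown beside that of Igf2. Both windows are from RefSeq on GRCr8, cover 250 bases before and 50 after an annotated start, and are written 5′ to 3′ along the minus strand. Grb10 lies at chr14:90816338-90816637 and this Igf2 start, one of 2 in the table, at chr1:207250426-207250725. Capitals mark GGGCGG or its reverse complement, the letters bound by Sp1-type factors, with overlapping matches joined.
Grb10: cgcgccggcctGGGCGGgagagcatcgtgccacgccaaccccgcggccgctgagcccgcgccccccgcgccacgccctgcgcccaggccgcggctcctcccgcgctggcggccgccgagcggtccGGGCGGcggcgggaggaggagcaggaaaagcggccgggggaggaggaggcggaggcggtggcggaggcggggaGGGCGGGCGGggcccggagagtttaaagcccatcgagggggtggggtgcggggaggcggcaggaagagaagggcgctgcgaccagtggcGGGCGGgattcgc
Igf2: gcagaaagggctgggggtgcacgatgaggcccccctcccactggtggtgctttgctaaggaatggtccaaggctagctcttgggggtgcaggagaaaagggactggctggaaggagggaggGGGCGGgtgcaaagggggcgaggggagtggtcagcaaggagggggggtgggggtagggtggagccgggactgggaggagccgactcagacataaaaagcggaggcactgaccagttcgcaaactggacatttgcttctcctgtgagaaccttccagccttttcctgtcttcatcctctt

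The Grb10 window held 5 such matches and 79.7% G and C, and the Igf2 window 1 match and 60.7% G and C. The motif occurred in 33.1% of 33469 windows of the same length, whose median G and C content was 51.7%. Windows were found for 8 of the 10 genes asked for. GGGCGG was in a window of 7 of these 8, all but Peg3, with 2 matches each for Plagl1, Igf2r and Dlk1, and the Dlk1 window held 76.0% G and C. Among the 8 the E-box letters CANNTG, searched on both strands, were in the windows of Plagl1, Igf2r, Mest and this Igf2 start and in 72.1% of all windows. TATAAA was in none of theirs and in 14.2% of all, and 4 G followed by 4 C, the element bound by the Plagl1 protein, was in the window of Peg3 and in 0.858% of all. A match of letters is a description and not a binding site.

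The paternally expressed members other than Igf2 gave small or inconsistent differences. Dlk1, a membrane protein of the Notch ligand family that marks fetal liver progenitors and preadipocytes, read 5.20 and 5.85 on the obese arrays and 5.28 and 5.40 on the lean arrays. The obese arrays lay on both sides of the lean ones, and the difference of 0.18 became -0.14 on leaving out the obese technical replicate array and 0.51 on leaving out its original array. Mest, an enzyme of the alpha/beta hydrolase fold linked to adipocyte growth in mice, stood at 5.27 and 4.81 on the obese arrays and at 4.96 and 5.01 on the lean arrays. It overlapped in the same manner, with a difference of 0.05 that became -0.18 on leaving out the obese original array and 0.28 on leaving out the technical replicate array of that pool.

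Plagl1, a zinc finger transcription factor that in mice activates other imprinted genes, including Igf2 and H19, read 4.59 and 4.76 on the obese arrays and 4.62 and 4.97 on the lean arrays. Its groups overlapped and the difference was -0.12. Ndn encodes necdin, a MAGE family protein that restrains cell division, and stood at 3.58 and 3.78 on the obese arrays and at 3.88 and 4.09 on the lean arrays. The obese pool was 1.24-fold lower (1.07 to 1.43) without overlap, at a level well below the median of all genes in both pools. In all, 5 of the 9 genes had obese arrays wholly below the lean arrays and 0 wholly above, where over all genes 18.5% lay below and 27.5% above. As both directions are common at this number of arrays and the contrast helped choose the set, nothing is read from that count.

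**Figure D2:**
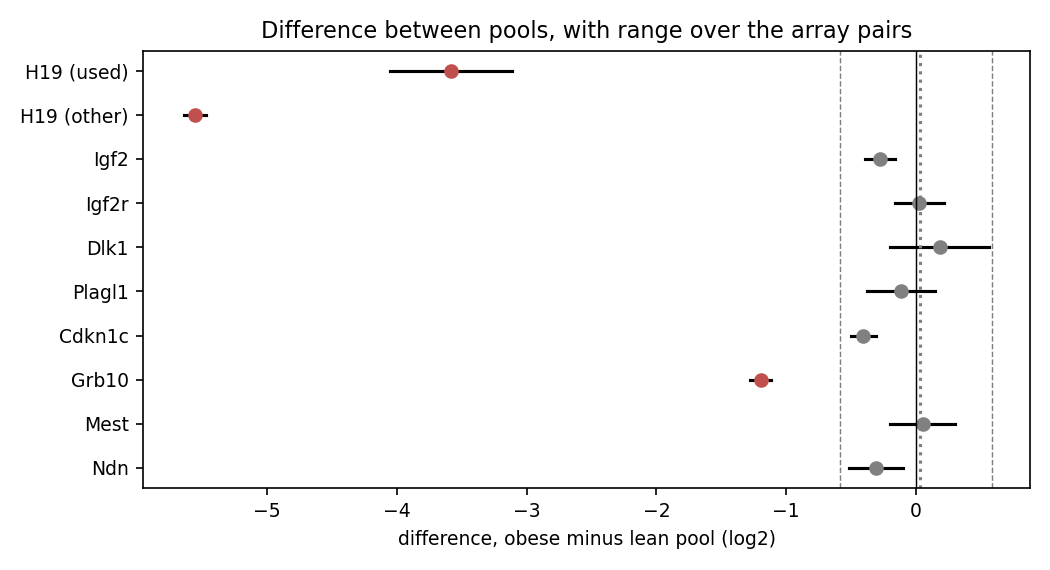
Difference between the pools (obese minus lean, log2) for each measured gene, with H19 shown for both probe sets; the point is the difference of pool means, the line its range over the 4 pairs of arrays, red points pass the 1.5-fold rule, the dashed lines mark a factor of 1.5 either way and the dotted line the median of all genes. H19 lies at -3.58 and -5.56 and Grb10 at -1.20, while the other genes lie between -0.40 and 0.18.

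The genes whose values over the 4 arrays were most like those of H19 were sought by the Euclidean distance between mean-centred log2 values, over all named genes. The nearest 5 were Sypl2, a membrane protein of the muscle triad (distance 0.33), Txlnb, beta-taxilin (0.37), Klhl31, a kelch-like protein of striated muscle (0.40), Ankrd23, a titin-associated ankyrin repeat protein (0.48), and Eef1a2, the translation elongation factor of muscle and neurons (0.50). Sypl2 read 3.70 and 4.20 on the obese arrays and 7.31 and 7.36 on the lean arrays. The nearest 5 to Grb10 were Klf9, a zinc finger transcription factor (0.05), G6pc1, which releases free glucose from glucose 6-phosphate (0.08), Slc22a8, an organic anion transporter (0.08), Srpx, a sushi repeat protein (0.09), and Hao2, a hydroxyacid oxidase (0.10). Klf9 read 7.36 and 7.20 on the obese arrays and 8.43 and 8.42 on the lean arrays. With 2 pools these distances mostly reflect the size of 1 difference, and they say nothing of a shared origin.

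The genes on either side of H19 were compared in RefSeq order, a choice made after the H19 values had been seen. By the 1.5-fold rule 2.43% of all genes were lower in obese liver and 2.19% higher. Of the 24 nearest measured genes, 12 before and 12 after H19, 2 passed the rule as lower in obese liver and 0 as higher. Those 2 were the fast skeletal troponins Tnnt3 and Tnni2, which lie on the side of H19 away from Igf2. Tnnt3 read 5.29 and 5.20 on the obese arrays and 11.54 and 11.66 on the lean arrays, and Tnni2 was 16.2-fold lower in obese liver (range 13.4 to 19.6). Both troponins lay below the median level of all genes in the obese pool, so their folds have no firm size. Mrpl23, a mitochondrial ribosomal protein gene that lies between Tnnt3 and H19, had a difference of -0.02. The other 22 genes, among them Igf2, Ins2, Th, Ascl2, Cd81, Kcnq1 and Cdkn1c, had differences between -0.42 and 0.28. Around Grb10, 1 of the 24 nearest genes passed the rule, which was Igfbp1, and its direct neighbours Ddc and Cobl had differences of 0.22 and -0.03. Around Dlk1, 0 of 24 passed, and Meg3, the maternally expressed noncoding RNA of that domain, stood at 5.14 and 5.45 on the obese arrays and at 5.42 and 5.40 on the lean arrays.

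**Figure D3:**
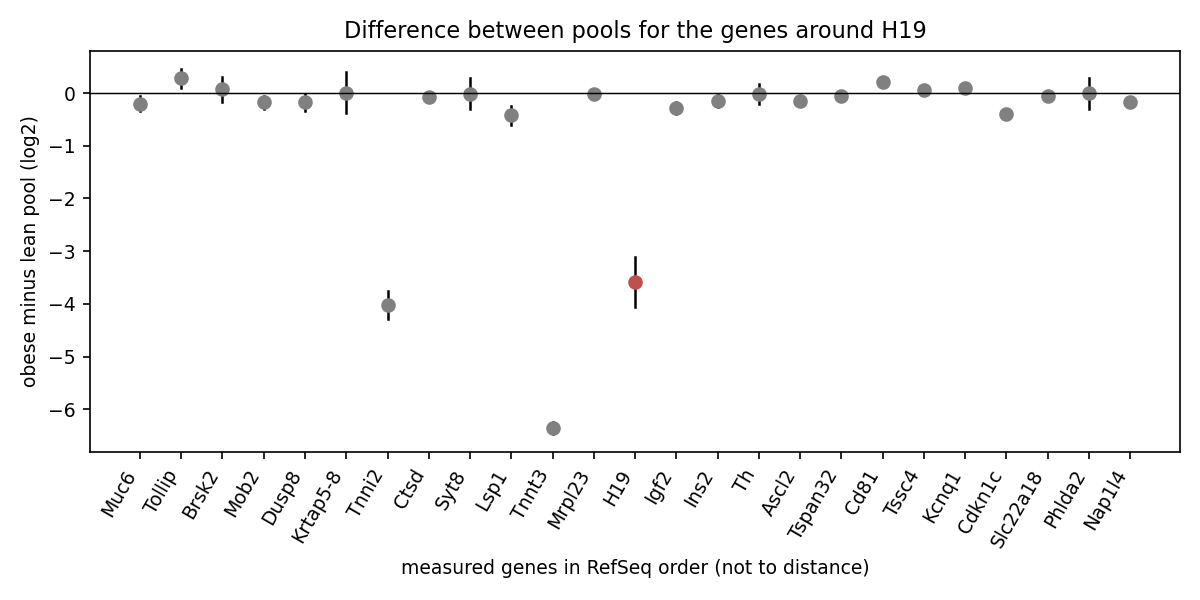
Difference between the pools (obese minus lean, log2) for H19 (red) and the 24 measured genes nearest to it (grey), placed in RefSeq order and not to distance; lines give the range over the 4 pairs of arrays. Tnni2, Tnnt3 and H19 lie between -6.36 and -3.58 and the other genes between -0.42 and 0.28.

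Other genes known to be imprinted, mostly from mouse, were taken as a list of 47, of which 37 were measured. Of these, 1 was lower and 0 were higher by the 1.5-fold rule, beside 2.43% and 2.19% of all genes. Only 13 of the 37 reached the level the rule asks for. Their median difference was -0.02, and 36 of the 37 lay within 0.5 of 0, a share not taken over all genes. The gene past the rule was Dcn, decorin, a matrix proteoglycan made by fibroblasts and muscle connective tissue. It read 6.79 and 6.26 on the obese arrays and 8.38 and 8.47 on the lean arrays. Genes of the list with high liver levels stayed close, such as the amino acid transporter Slc38a4, at 12.83 and 12.68 on the obese arrays and 12.53 and 12.54 on the lean arrays. The signalling subunit gene Gnas had a difference of -0.12 and the tetraspanin Cd81 one of 0.22.

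Partners of Igf2 in the insulin-like growth factor axis were measured for 12 of 17 genes, with a median difference of -0.21. By the 1.5-fold rule 3 were lower and 0 higher, beside 2.43% and 2.19% of all genes. All 3 were binding proteins, which hold the growth factors in plasma and tissue. Igfbp5, which muscle and connective tissue express, read 4.60 and 4.98 on the obese arrays and 7.16 and 7.25 on the lean arrays. Igfbp1, a liver product repressed by insulin, stood at 8.74 and 8.44 on the obese arrays and at 9.75 and 9.81 on the lean arrays, and Igfbp6 was 1.62-fold lower in obese liver (range 1.52 to 1.73). The obese levels of Igfbp5 and Igfbp6 lay below the median of all genes, so their folds have no firm size. The signalling receptor Igf1r had a difference of 0.02 and Igf1 itself one of -0.03. Of 10 genes of fetal liver and growing progenitors, 7 were measured, 0 passed a rule and 0 reached the median level of all genes. Afp, the fetal serum protein, had a difference of 0.19 and Gpc3, a proteoglycan of fetal liver, one of -0.11.

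Markers of other cells were read beside these results, with 2.43% of all genes lower and 2.19% higher by the 1.5-fold rule. Among 8 measured genes of satellite cells and myoblasts, 1 was lower by the 1.5-fold rule, Myf6, a regulator that adult muscle fibres keep expressing, at 3.36 and 3.27 on the obese arrays and 6.47 and 6.35 on the lean arrays. The other 7 did not pass and stayed below the median level of all genes in both pools. The list, Myf6 included, summed to 125 to 136 on the obese arrays and 210 to 238 on the lean arrays (linear intensity). Its median difference was -0.22. Of 12 markers of stellate cells and fibroblasts, 2 passed the rule as lower. Desmin (Des), which muscle also makes, was 16.6-fold lower (13.7 to 20.1) with an obese level below the median of all genes. The collagen Col1a1 was 1.96-fold lower (1.82 to 2.11). Lum was 4.30-fold lower (3.95 to 4.69) but did not pass, as both pools lay below the level the rule asks for. Of the 12, 10 had differences below 0 and 2 above. The 12 markers summed to 1382 to 1443 on the obese arrays and 2249 to 2324 on the lean arrays. That sum includes Des, and the median difference of the list was -0.28. Of 5 blood cell genes, 2 passed the rule as lower. Alas2, the haem enzyme of red cells, was 2.53-fold lower (2.35 to 2.72), and Hbb, a haemoglobin chain, 1.86-fold (1.80 to 1.92). The 5 genes summed to 3318 to 3378 on the obese arrays and 6168 to 6431 on the lean arrays. Most of that sum is Hbb, at 11.57 in the obese pool and 12.46 in the lean pool (log2). The median difference of the list was -0.45, and only 3 of its 5 genes reached the level the rule asks for. No marker of endothelium (0 of 6), macrophages (0 of 10), lymphocytes (0 of 9), bile duct (0 of 6) or adipocytes (0 of 8) passed the rule. Even so, all 6 endothelium and all 10 macrophage markers had differences below 0, with medians of -0.20 and -0.24. The obese arrays lay wholly below the lean arrays for 4 and 7 of them, beside 18.5% of all genes. All endothelium and macrophage markers reached the level the rule asks for, but only 2 lymphocyte, 2 adipocyte and 0 bile duct markers did. The remaining markers of those 3 lists could not pass, so their counts do not show that these cells were alike in the pools. After RMA no probe set reads 0, so absence of a marker cannot be seen, and the part of these cells in the H19 and Grb10 values was not tested.

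**Figure D4:**
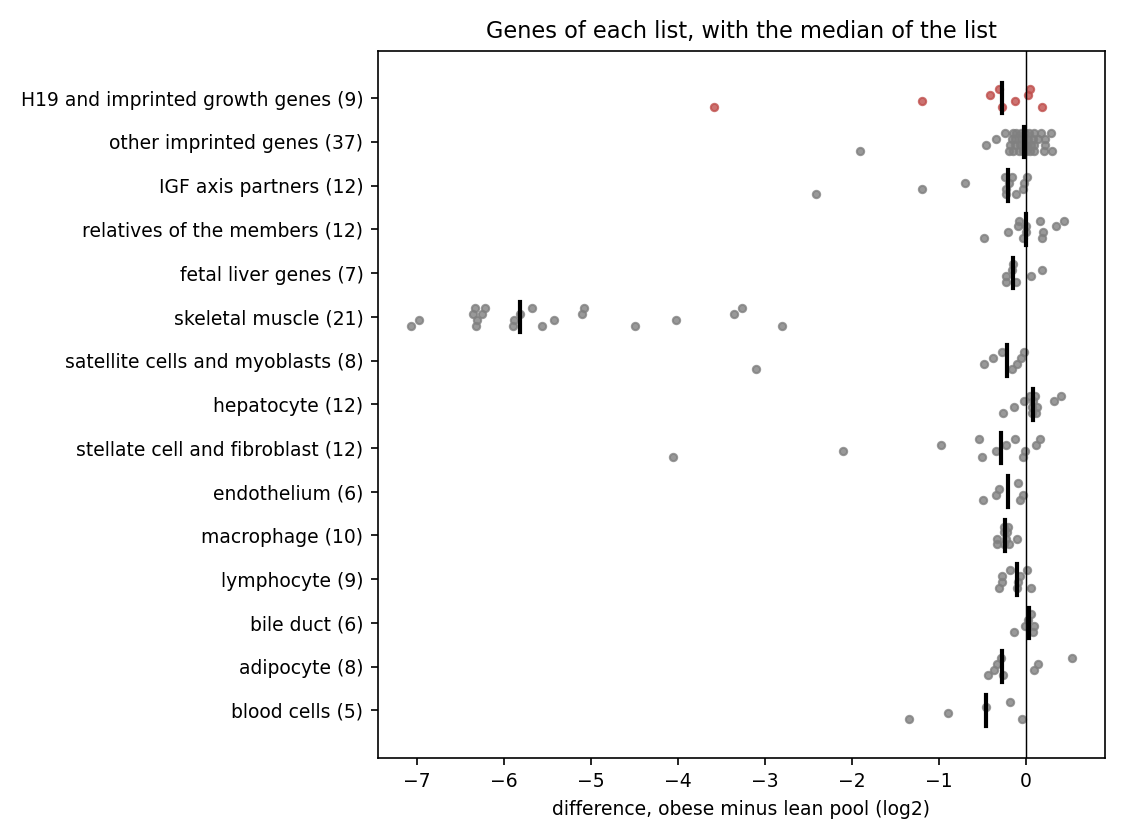
Difference between the pools (obese minus lean, log2) for every measured gene of each list; red points are H19 and the imprinted growth genes, grey points the genes of the other lists, black bars the median of a list, and the number of measured genes stands in brackets. The skeletal muscle list lies at or below -2.80, and the medians of the other lists lie between -0.45 and 0.08.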

How the data were processed

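RNA of 4 rats per phenotype was pooled, and 100 ng of each pool was labelled and hybridised to Affymetrix Rat Gene ST arrays, per the labels' protocols. The authors used RMA and deposited linear intensities, per the submitters' processing notes. The version, the genome build and the step that made RMA values linear are not given in the sources used here. Here log2 was taken with no further scaling. RMA pulls in very dim values, so folds of dim genes can understate differences and have no firm size. The number of arrays limits the precision.

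The table held 29214 probe sets. The platform annotation gave 1 symbol to 15310 of them, several to 323 and did not list 13581. The gene table of GRCr8 held the gene identifier of 15279 of these 15310 probe sets and changed 0 symbols. It was used for names and gene order, and its build is stated where sequences are shown.

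The members, lists and rules were chosen with earlier results of these data known. Genes named are the members, up to 6 genes of a list with the largest differences past the 1.5-fold rule, the brightest muscle genes, Alb, and the 5 genes most like H19 and Grb10. Others (Igf1, Igf1r, Afp, Gpc3, Gnas, Cd81, Slc38a4, Meg3, Lum and the neighbours of H19 and Grb10) were chosen after their values were seen. No p-values were computed. The size rule was tried on simulated data with large changes in genes well above the median level. That setting does not cover smaller changes or dim genes such as Grb10. Alternatives were another scaling, an offset, averaged probe sets, no level filter and arrays left out. Python 3.11.15, pandas 2.3.3, R 4.3.3 and limma 3.58.1 were used.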

Additional observations from a re-analysis of the deposited data

How the results depend on the processing

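The counts by the 1.5-fold rule, 2 lower and 0 higher, were the same under all 12 alternatives. The count by the 2-fold rule fell to 1 with an offset of 16, which left out Grb10, and was 2 under the other 11. The median difference of the members was -0.14 with that offset, -0.12 without H19 and Grb10, and -0.38 to -0.18 when 1 array was left out. H19 was below 0 in all 12 alternatives, from -5.56 to -3.14, and Grb10 in all 11, from -1.27 to -0.78. Igf2, Cdkn1c and Ndn were below 0 in all 11 of theirs. The arrays of the pools did not overlap for these 5 genes, so leaving out arrays could not change their sign. Averaging probe sets changed only H19, the only one of the 5 with more than 1 probe set. Igf2r, Dlk1, Plagl1 and Mest took either sign, as 5, 2, 10 and 2 of their 11 alternatives were below 0. No scaling moved the median of all genes by over 0.1. The split of all genes past the 1.5-fold rule depended on the obese array: without the original one 389 genes were lower and 258 higher, and without the technical replicate 335 were lower and 553 higher. No paired analysis was possible because the arrays of a pool measure the same RNA and the labels number no replicates.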

Other observations

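Relatives of the members by sequence or function were read as a further list. Of 12 measured genes 0 passed the 1.5-fold rule, beside 2.43% lower and 2.19% higher over all genes. The level it asks for was reached by 7 of the 12, and their median difference was 0.01. Grb14, the relative of Grb10 that binds the insulin receptor in liver, stood at 8.77 and 8.75 on the obese arrays and at 8.76 and 8.74 on the lean arrays. Grb7, the third adaptor of that family, read 7.60 and 7.53 on the obese arrays and 8.07 and 8.03 on the lean arrays, 1.40-fold lower in the obese pool (1.35 to 1.45). M6pr, the smaller receptor for mannose 6-phosphate beside Igf2r, was 1.28-fold higher in obese liver (range 1.25 to 1.31). Among inhibitors of cyclin-dependent kinases related to Cdkn1c, Cdkn2b was 1.36-fold higher (1.22 to 1.52) and Cdkn1a and Cdkn1b had differences of 0.19 and -0.08. These genes were named after their values had been seen.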
